A study of Homo sapiens with 4 samples.

Results

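The genes described here are 9 genes of antigen presentation: HLA-B, HLA-E, HLA-F, HLA-DRA, B2M, TAP1, PSMB8, PSMB9 and CD74. They were taken by name, as every non-control probe of the array whose gene name equals that of a member, which gave 12 probes of 34127 and 9 gene names of 25992. All 9 names were found on the array, and the rule uses no measured value.

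Every nucleated cell cuts its own proteins into peptides and shows them at its surface on MHC class I molecules, where cytotoxic T cells read them. The peptides are made by the proteasome, which takes up the inducible subunits PSMB8 and PSMB9 in inflamed tissue, are pumped into the endoplasmic reticulum by the TAP transporter and are loaded onto a heavy chain (such as HLA-B, HLA-E or HLA-F) bound to β2-microglobulin (B2M). MHC class II molecules (such as HLA-DRA with its β chain, chaperoned by the invariant chain CD74) show peptides from outside the cell to helper T cells, and are best known from professional antigen-presenting cells, although proximal tubular cells in the inflamed kidney can carry them as well.

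Gene expression was measured in human proximal tubular cells (HPTCs) on 4 Agilent 1-colour arrays, with biological duplicates of each cell line: HK-2 replicates 1 and 2, called H1 and H2 below, and RPTEC/TERT1 replicates 1 and 2, called R1 and R2. HK-2 is a proximal tubular line immortalised with papillomavirus oncogenes and was kept in keratinocyte medium with serum, EGF and pituitary extract, whereas RPTEC/TERT1 was immortalised with the catalytic subunit of telomerase and was kept in a defined medium with insulin, transferrin, selenite, EGF and hydrocortisone. All 4 arrays share the treatment: starvation of serum and supplements for 24 h, followed by 24 h with IL-1β (10 ng/mL), an inflammatory cytokine, together with empagliflozin (Empa, 500 nM), an inhibitor of the glucose transporter SGLT2. Unstimulated cells and cells given IL-1β or Empa alone were not analysed here, so the values are levels in stimulated cells and not responses to either agent. The only comparison the labels allow is that of the cell lines, which also differ in medium, and each line stands for a single immortalised origin.

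A level is the log2 of a gene's processed signal over the 75th percentile of its array, so that 0 is the level of that percentile. Levels below -5.37 were set to this floor, since H1 marked no fainter scaled signal as well above background. A probe's level depends on its sequence, so levels were compared between arrays and not between genes. The 75th percentile was 393 to 748 signal units and 59.2% to 64.9% of the spots were well above background, and neither value separated the labelled cell lines. Both were lower on H1 and R2 (393 and 429 units, 60.2% and 59.2%) than on H2 and R1 (748 and 488 units, 64.9% and 63.4%). Their part in the differences between these arrays was not tested. Of the defining markers, EPCAM, KRT8, KRT18 and KRT19 of the epithelium were well above background on all 4 arrays. Of the 10 proximal tubule markers 4 to 6 were well above background on each array, and CUBN and SLC22A6 were not on any.

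The arrays did not group by their labels. Over the 16468 genes tested, those well above background on 2 or more arrays, H1 and R2 had a Pearson correlation of 0.983, and H2 and R1 one of 0.975. The arrays of the same label correlated at 0.847 (HK-2) and 0.833 (RPTEC/TERT1), and those of the same replicate number, which also share a scan date, at 0.844 and 0.856. These are correlations across genes, which are not independent replicates. Whether labels were exchanged was not tested, and in what follows a cell line name stands for the label of the array only.

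Among the 9 genes the same split was seen. The median absolute difference over the 8 genes tested was 0.210 between H1 and R2 and 0.258 between H2 and R1, on the log2 scale. It was 1.30 between H1 and H2 and 1.81 between R1 and R2. Over all genes tested the corresponding values were 0.216, 0.301, 0.669 and 0.791, so the antigen presentation genes lay about as close as other genes across the labels and further apart within a label. Their median range over the 4 arrays was 1.81, beside 1.05 over all genes tested.

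**Figure D1:**
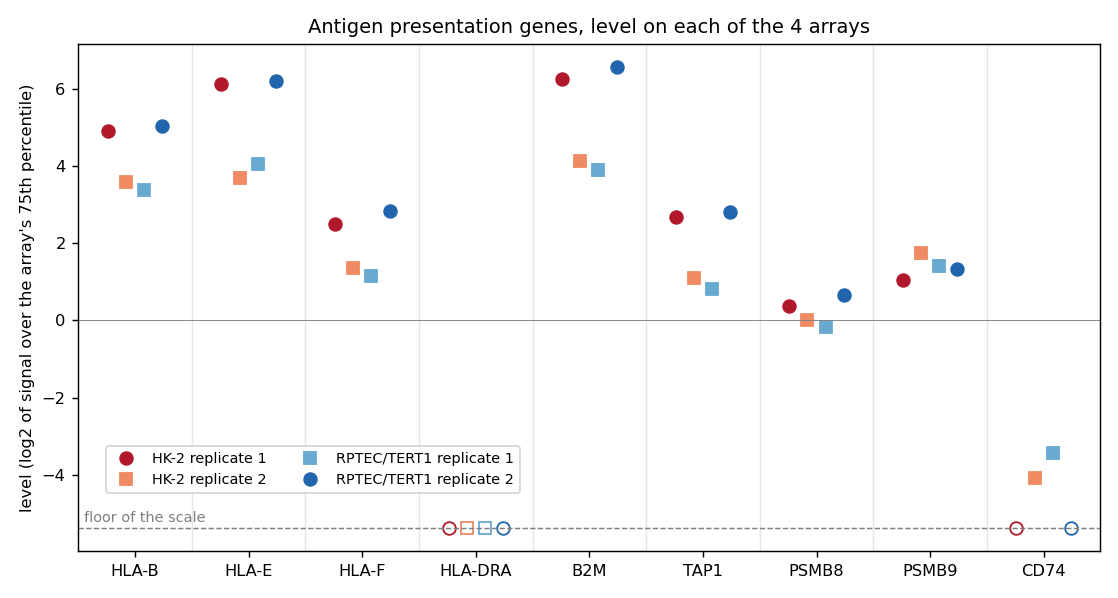
Level of each antigen presentation gene on each array (log2 of the signal over the array's 75th percentile), with HK-2 in red and orange and RPTEC/TERT1 in blue, circles for H1 (HK-2 replicate 1) and R2 (RPTEC/TERT1 replicate 2), and squares for H2 (HK-2 replicate 2) and R1 (RPTEC/TERT1 replicate 1). Open symbols lie at the floor of -5.37. In HLA-B, HLA-E, HLA-F, B2M, TAP1 and PSMB8 the circles lie above the squares, in CD74 and PSMB9 below them.

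HLA-B is a classical class I heavy chain. Its level was 4.91 on H1, 3.59 on H2, 3.38 on R1 and 5.05 on R2, as the mean of 3 probes. H1 and R2 were high, the other arrays low, and the labelled cell lines overlapped. The cell line difference, given throughout as HK-2 minus RPTEC/TERT1, was 0.033 with an SE of 0.84 (95% interval -2.24 to 2.31, limma adjusted p = 1, n = 2 against 2). The interval reaches from 4.72-fold lower to 4.95-fold higher, so these arrays do not show that the cell lines are alike.

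Class I heavy chain genes are close relatives, and their probes can bind the same RNA, so the probes are shown here. A pair of HLA-B probes lies at chr6:31321653-31321712 and chr6:31321663-31321722 (GRCh37, minus strand, transcript NM_005514), and a probe that the array names HLA-C lies over the same stretch of the HLA-B gene, at chr6:31321644-31321703. The unplaced HLA-B probe A_33_P3399208 (ENST00000466304) has no position in the files. In the same 30-base window, 5′ to 3′, the 3 overlapping probes differ at a single base, set in capitals.
HLA-B, A_33_P3379947: gtcaattcctggaaTttgagagagcaaata
HLA-B, A_33_P3424800: gtcaattcctggaaGttgagagagcaaata
HLA-C by name, A_33_P3424803: gtcaattcctggaaGttgagagagcaaata
Counted from 1 at the 5′ end of the window, the lower lines differ from the first by T15G. The HLA-B probe A_33_P3424800 and the probe named HLA-C share a run of 41 bases, where their positions on the HLA-B gene overlap. Probes were compared only with other probes, so how far either binds HLA-C RNA was not tested. The HLA-E probe shared at most 10 bases in a run with a probe of another class I gene, and the HLA-F probes at most 6 and 9.

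The probes of HLA-B nonetheless moved together over the arrays. A_33_P3379947 read 6.27, 4.99, 4.64 and 6.54 on H1, H2, R1 and R2, and A_33_P3424800 read 6.68, 5.29, 5.33 and 6.78. That without a position read 1.78, 0.48, 0.18 and 1.83. H1 and R2 were the high arrays for all 3, and for the probe named HLA-C too, with 7.03, 5.62, 5.64 and 7.13. The cell line difference was 0.041, -0.070 and 0.13 for the 3 HLA-B probes, each with an SE above 0.8.

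**Figure D2:**
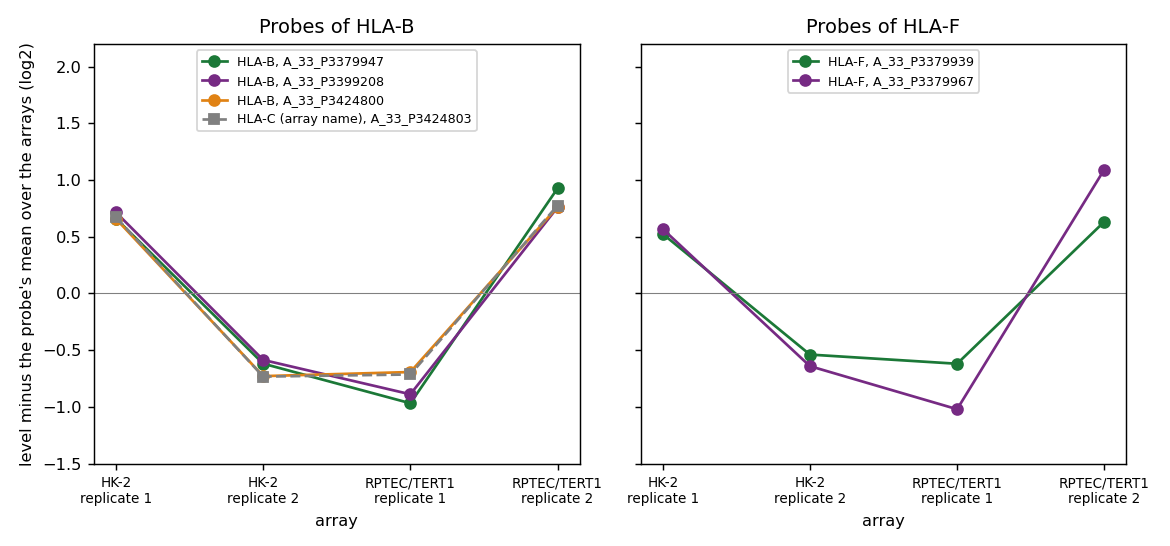
Level of each probe of HLA-B and HLA-F minus that probe's own mean over the 4 arrays (log2), by array, with the overlapping probe named HLA-C as a dashed line. Every probe drawn is above its mean on H1 and R2 and below it on the other arrays.

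HLA-E is a nonclassical class I chain that presents leader peptides of other class I chains to NK cell receptors. It read 6.13 and 3.70 on the arrays labelled HK-2 and 4.05 and 6.21 on those labelled RPTEC/TERT1 (probe at chr6:30460729-30460788, GRCh37, plus strand). The arrays of a single label differed 5.40-fold in HK-2 and 4.45-fold in RPTEC/TERT1, and the labels overlapped. Between the cell lines HLA-E differed by -0.22 with an SE of 1.19 (95% interval -3.43 to 3.00, limma adjusted p = 1).

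HLA-F is a further nonclassical chain, much of which stays inside the cell. It read 2.51, 1.37, 1.14 and 2.82 on H1, H2, R1 and R2, as the mean of a probe on transcript NM_018950 (chr6:29693280-29693338, GRCh37, plus strand) and a probe on NM_001098478 (chr6:29692114-29692173). The probe on NM_001098478 spanned 2.11 log2 units over the RPTEC/TERT1 arrays and the other probe 1.25, with the same array higher. For HLA-F the cell line difference was -0.043 with an SE of 0.81 (limma adjusted p = 1).

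B2M, the light chain that every class I heavy chain needs to reach the surface, had the widest range of the 9 genes, 2.65 log2 units or 6.30-fold. Its probe is printed on 10 spots of each array, and the mean processed signal was 30139 on H1, 13098 on H2, 7366 on R1 and 40617 on R2. As levels these were 6.26, 4.13, 3.91 and 6.56. H1 and R2 were high whether or not the signal was scaled, and no spot was saturated. The SD of the 10 spots was 0.064 to 0.13 log2 units on an array, while the arrays of a label lay 2.13 (HK-2) and 2.65 (RPTEC/TERT1) apart. For B2M the cell line difference was -0.044 with an SE of 1.24 (95% interval -3.39 to 3.31, limma adjusted p = 1). Of all genes tested, 89.9% had a narrower range than B2M and 88.6% a narrower range than HLA-E.

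The B2M probe, which carries the best replicated value of the set, lies at chr15:45007773-45007832 (GRCh37, plus strand, transcript NM_004048) and reads as follows.
B2M, A_23_P37441: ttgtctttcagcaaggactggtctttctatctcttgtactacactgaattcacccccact

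TAP1 is a subunit of the transporter that carries peptides into the endoplasmic reticulum. Its level was 2.67 and 1.11 on the arrays labelled HK-2 and 0.82 and 2.81 on those labelled RPTEC/TERT1. The high arrays were again H1 and R2, 2.95-fold above the other HK-2 array and 3.96-fold above the other RPTEC/TERT1 array. In TAP1 the cell lines differed by 0.073 with an SE of 0.96 (limma adjusted p = 1).

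PSMB8 and PSMB9 are catalytic subunits that replace PSMB5 and PSMB6 in the immunoproteasome, and they varied less than the class I chains. PSMB8 read 0.37, 0.0079, -0.16 and 0.65 on H1, H2, R1 and R2. It had the high arrays of the heavy chains, with a range of 1.75-fold. PSMB9 read 1.05, 1.76, 1.41 and 1.33, with its highest value on H2 and its lowest on H1, a range of 1.63-fold. The RPTEC/TERT1 arrays, 1.99 log2 units apart in the neighbouring gene TAP1 (0.82 and 2.81), were 0.082 apart in PSMB9. The cell lines differed by -0.058 with an SE of 0.52 in PSMB8 and 0.031 with an SE of 0.48 in PSMB9 (limma adjusted p = 1 in both). A narrower range than that of PSMB8 was seen in 35.8% of all genes tested and than that of PSMB9 in 28.5%. The order of the arrays in PSMB8 depends on the scaling: without it the signal was 509 and 752 on the HK-2 arrays, so that H2 read higher.

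The probes of PSMB8 and PSMB9, whose order over the arrays differed, lie at chr6:32810023-32810490 (minus strand, NM_004159) and chr6:32823918-32823977 (plus strand, NM_002800) of GRCh37. The 60 bases of the PSMB8 probe span 468 genome positions, so they cross a splice junction.
PSMB8, A_23_P250629: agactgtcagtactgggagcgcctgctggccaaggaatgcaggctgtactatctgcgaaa
PSMB9, A_23_P111000: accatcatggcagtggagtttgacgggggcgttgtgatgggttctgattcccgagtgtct

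CD74, the invariant chain of MHC class II, was measured at the edge of detection. Its processed signal was -1.38 ± 3.44 (the error Feature Extraction gives a spot) on H1, 44.0 ± 6.30 on H2, 44.9 ± 5.21 on R1 and -4.99 ± 3.06 on R2. It was well above background on H2 and R1 only, the arrays on which the class I genes were low, and stood at the floor on the others. The levels were -4.09 and -3.44 on those arrays. A signal of this size is above the 95th percentile of the 153 negative control spots (9.12 on H2 and 3.91 on R1) but below the brightest of them (50.7 and 49.3). The cell line difference of CD74 was -0.32 with an SE of 0.90 (limma adjusted p = 1), where floor values stand for 1 array of each label. The probe lies at chr5:149792222-149792281 (GRCh37, minus strand, NM_001025158).
CD74, A_23_P70095: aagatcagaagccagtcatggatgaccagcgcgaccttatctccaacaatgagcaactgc

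HLA-DRA, the α chain of HLA-DR, was not well above background on any array. The processed signal was -3.00 and -1.62 on the HK-2 arrays and -1.60 and 1.34 on the RPTEC/TERT1 arrays, with errors of 2.92 to 5.19, so every value was within its error of 0. The lowest signals that were marked well above background on these arrays were 4.39 to 10.3, which limits what could have been seen. HLA-DRA had no test.

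Leukocyte markers were looked at beside CD74, since leukocytes are the usual source of class II RNA. Of the 9 leukocyte markers on the array, 4 to 7 were well above background on an array. PTPRC (CD45) read -3.39, -3.62, -3.32 and -4.25 on H1, H2, R1 and R2. CSF1R, the receptor of macrophage colony-stimulating factor, had the same pattern as CD74: it was at the floor on H1 and R2 and read -2.09 and -2.07 on the others. CSF1R is named for this pattern, which the list did not share as a whole. Of the 6 markers tested, 3 were highest on H2 and R1 and 1 on H1 and R2, while PTPRC and ITGAM were highest on H1 and R1. The summed signal of the list was 2.50 to 3.33 on the HK-2 arrays and 1.75 to 4.63 on the RPTEC/TERT1 arrays, in units of the 75th percentile, and was higher where CD74 was at the floor. Most of it came from a single gene, CD79A, a subunit of the B cell receptor complex, which is named after its values were seen (levels of 1.54, 0.86, -0.0034 and 2.10 on H1, H2, R1 and R2). Without CD79A the sum of the other 8 genes, CSF1R among them, was 0.432, 0.683, 0.755 and 0.337, and was lower where CD74 was at the floor. In the epithelial list it was 36.7 to 84.2 and 35.2 to 97.0, and CDH1 was at the floor where CD74 was measured. The part of other cells in the CD74 signal was not tested, and in bulk RNA fewer cells of a type and less RNA per cell cannot be told apart.

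Of the 9 members 8 could be tested between the labelled cell lines, and 0 were called at an adjusted p under 0.05 with limma, beside 0 of all 16468 genes (0%). At an unadjusted p under 0.05 the count was 0 of the members and 23 of all genes (0.14%). No member had arrays of the cell lines that did not overlap, a pattern seen in 7.17% of all genes tested (higher in HK-2 in 4.36%, lower in 2.81%). The design of 2 against 2 arrays, with a spread of this size within a label, leaves intervals of 2.62 to 6.70 log2 units in width for the members. Leaving out a single array set the sign: the difference of B2M was -1.11 without H1 and -1.37 without R1, and 1.02 without H2 and 1.28 without R2. HLA-B, HLA-E, HLA-F, TAP1 and PSMB8 took the same signs as B2M without each of these arrays, and PSMB9 and CD74 the opposite ones.

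Within a replicate number the difference turned around. Within replicate 1, HLA-B, HLA-E, HLA-F, B2M and TAP1 were higher by over 1 log2 unit on the HK-2 array (5 of 8 members, beside 19.6% of all genes), and CD74 was lower by over 1 (16.4% of all genes). Within replicate 2 these 5 genes were lower by over 1 on the HK-2 array (17.8% of all genes) and CD74 was higher by over 1 (16%). Both steps were passed in opposite directions by the 5 genes, as by 14.6% of all genes, and in the reverse order by CD74, as by 12.8%. B2M was 2.35 higher and 2.44 lower, HLA-E 2.07 higher and 2.51 lower. The arrays of a label were over 1 unit apart in both cell lines in 6 of 8 members, against 24.8% of all genes. Without scaling between the arrays 2 members in place of 5 were lower by over 1 within replicate 2, and with normexp background correction 2 of the 5 genes (HLA-E and B2M) stayed higher by over 1 within replicate 1. CD74 turned around there, from -1.93 to 2.01 within replicate 1 with normexp and to 1.13 with the deposited log2 values, and within replicate 2 it was 0.39 and 0.43. Since the members were chosen with earlier results of these arrays known, these shares are a description.

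**Figure D3:**
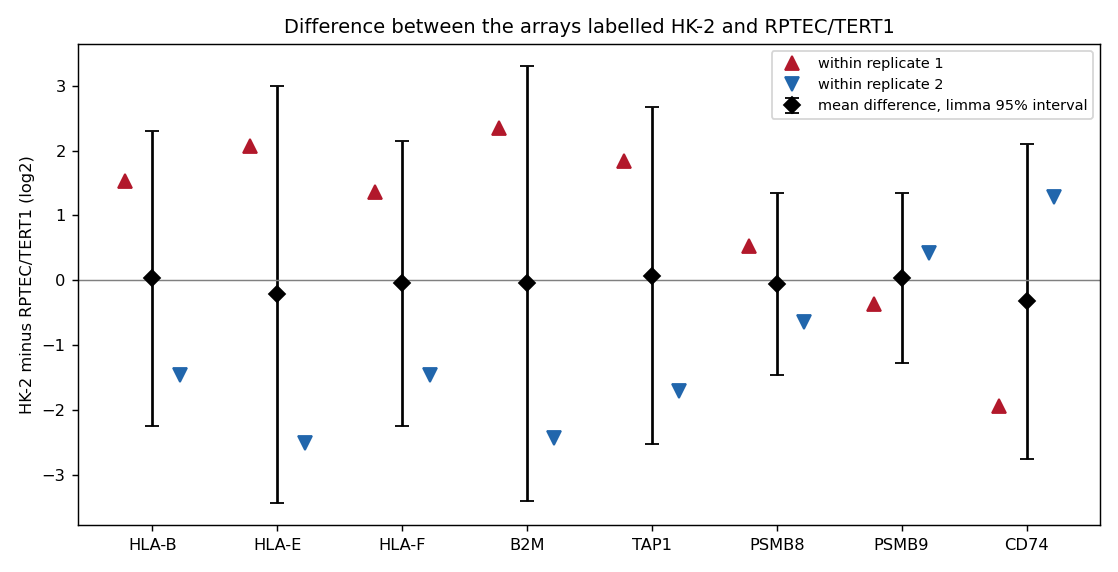
HK-2 minus RPTEC/TERT1 (log2) for the 8 genes tested: the mean difference with its limma 95% interval (black), and the difference within replicate 1 (upward triangles) and within replicate 2 (downward triangles). Every interval holds 0, and the 2 triangles of a gene lie on opposite sides of 0.

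The highest values fell on H1 and R2 in 6 of the 8 members (HLA-B, HLA-E, HLA-F, B2M, TAP1 and PSMB8), beside 38.9% of all genes, and on H2 and R1 in CD74 and PSMB9, beside 33.2%. Both patterns are thus common on these arrays. In PSMB9 the place of R1 above R2 rests on 0.082 log2 units. That difference, R1 minus R2, became -0.019 under median scaling and -0.0016 with the deposited log2 values.

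The genes that moved together over the arrays included TAP1 but not PSMB9, which are neighbours in opposite orientation. In RefSeq (GRCh38.p14) their transcription starts are 488 bases apart with 0 annotated genes between them. For 7 of the 9 members the table of promoters held a window (HLA-E and HLA-DRA had none there), and the 250 bases before the start were searched on both strands for AANNGAAA (the core of interferon regulatory factor sites), TTCNNNGAA (the γ-interferon activated site), CCAAT, and the NF-κB consensus by its name, which IL-1β signalling acts through. In capitals are all matches, which may overlap.
HLA-B, chr6:31357180-31357429, minus strand: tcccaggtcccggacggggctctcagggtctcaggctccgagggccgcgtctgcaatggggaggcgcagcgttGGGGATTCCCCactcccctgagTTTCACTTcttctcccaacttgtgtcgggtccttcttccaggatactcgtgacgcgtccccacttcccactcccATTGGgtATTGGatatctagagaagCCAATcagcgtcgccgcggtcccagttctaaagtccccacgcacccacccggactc
B2M, chr15:44711267-44711516, plus strand: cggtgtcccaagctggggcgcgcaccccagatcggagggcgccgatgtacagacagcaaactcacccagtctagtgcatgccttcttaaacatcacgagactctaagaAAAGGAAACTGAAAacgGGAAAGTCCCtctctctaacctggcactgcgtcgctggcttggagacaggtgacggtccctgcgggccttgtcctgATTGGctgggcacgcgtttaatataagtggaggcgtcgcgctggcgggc
TAP1, chr6:32853705-32853954, minus strand: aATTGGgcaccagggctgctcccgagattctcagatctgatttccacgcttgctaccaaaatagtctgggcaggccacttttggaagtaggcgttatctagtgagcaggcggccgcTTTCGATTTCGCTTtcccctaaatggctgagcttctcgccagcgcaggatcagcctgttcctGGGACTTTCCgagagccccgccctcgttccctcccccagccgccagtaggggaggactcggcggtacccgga
PSMB9, chr6:32853942-32854191, plus strand: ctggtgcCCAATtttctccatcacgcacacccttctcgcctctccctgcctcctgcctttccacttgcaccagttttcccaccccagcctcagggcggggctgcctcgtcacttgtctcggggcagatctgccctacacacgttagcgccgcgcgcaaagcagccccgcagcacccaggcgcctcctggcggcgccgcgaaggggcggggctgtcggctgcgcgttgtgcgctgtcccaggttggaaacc
These 4 windows are shown because HLA-B, B2M and TAP1 shared their high arrays and PSMB9 did not share them.

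The IRF core was found in the windows of HLA-B (1 match), HLA-F (1), B2M (2) and the outer TAP1 start (2), 4 members of 7, and in 20.3% of all 35116 promoter windows. The NF-κB consensus was found in HLA-B (2 overlapping matches), B2M (1), TAP1 (1) and CD74 (3 overlapping matches), and in 9.96% of all windows. In HLA-B the NF-κB match begins 177 bases before the start and the IRF match 155, in B2M the IRF matches begin 142 and 136 bases before it and the NF-κB match 125, and in TAP1 these lie at 134, 128 and 72. The window of PSMB9 held a CCAAT box (32.0% of all windows) and neither of these. It overlaps the TAP1 window at chr6:32853942-32853954, and the CCAAT match of both windows is the same stretch of bases. The IRF and NF-κB matches of TAP1 lie between the starts of TAP1 and PSMB9, beyond the 250 bases searched for PSMB9. This contrast between the neighbours therefore depends on the length of the window. The γ-interferon activated site (6.57% of all windows) was matched in 1 window each of TAP1, 189 bases before the start, and PSMB8, 65 bases before it, 2 members of 7. PSMB8, which was highest on the same arrays as HLA-B, had no IRF or NF-κB match in its windows. A match is a description of letters and not of a bound factor, and the absence of a match says nothing beyond this window.

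Further genes of the pathway were taken from lists, 52 in all, each on the array. Of these 40 were well above background on all 4 arrays and 6 on none. 0 of the 45 tested were called with limma, and 0 passed an unadjusted p under 0.05. Their median range was 1.03, beside 1.81 for the members and 1.05 for all genes. The highest arrays were H1 and R2 in 28 of the 45, beside 38.9% of all genes tested, and H2 and R1 in 8, beside 33.2%. The same shares stand beside the counts of the single lists below.

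Among the other class I and class I-like chains 5 of the 6 genes tested had the high arrays of HLA-B, and CD1D was not well above background on any array. HLA-C, a classical heavy chain, read 7.11, 5.48, 5.73 and 7.14 on H1, H2, R1 and R2, partly through the probe that lies over HLA-B. MR1, which presents vitamin B metabolites, read -2.25, -3.34, -3.77 and -2.18. MICB, a stress-induced ligand of the NK receptor NKG2D, ran the other way with 0.87, 1.84, 2.11 and 0.83.

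In peptide loading all 8 genes were tested, and 5 had the high arrays of HLA-B. TAPBPL, a peptide editor related to tapasin, read -2.13, -3.75, -3.32 and -2.13. ERAP1, the aminopeptidase that trims peptides in the endoplasmic reticulum, read 1.13, 0.41, -0.14 and 1.46, and tapasin (TAPBP), which bridges TAP and the heavy chain, read -0.69, -1.89, -1.85 and -0.81. The levels of all 3 overlapped between the labels.

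Of the 8 proteasome genes 7 were tested, since the spot of PSME2 was an outlier on H1 and was left out. PSMB10, a further inducible catalytic subunit, had the widest range and read 4.58, 3.69, 3.17 and 4.90. PSME1, a subunit of the PA28 activator, read 0.79, 0.20, -0.29 and 1.28. PSMB6, the constitutive counterpart of PSMB9, read 4.12, 4.00, 3.49 and 4.46, a range of 0.98 log2 units. These 3 genes had the high arrays of HLA-B, which PSMB9 did not.

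Of the 15 class II genes 12 were tested, and HLA-DRB4, HLA-DRB5 and HLA-DQA1 were not well above background on any array. HLA-DRB3, an HLA-DR β chain whose gene is carried by some chromosomes and resembles the other DRB genes, had the widest range of the list among genes well above background on all arrays, with -0.50 and -0.22 on the HK-2 arrays and -2.08 and 1.57 on the RPTEC/TERT1 arrays. In it the RPTEC/TERT1 arrays were the highest and the lowest, 3.65 log2 units apart. HLA-DPB1 read -3.38, -5.11, -5.20 and -3.81 on H1, H2, R1 and R2, near the floor of -5.37 on H2 and R1. HLA-DMB, part of the class II peptide editor, read 1.90, 1.03, 0.47 and 2.42. HLA-DMA, the partner of HLA-DMB, had its highest values on the opposite arrays, with -2.36, -1.17, -1.05 and -2.42. The protease CTSS, measured on 3 arrays, read -0.73, -5.17, -4.05 and -1.15, and HLA-DMA and CTSS were chosen after their values were seen.

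The regulators did not follow a single pattern, with 5 of 8 highest on the arrays where HLA-B was high and 2 on the others. RFXAP, a subunit of the RFX complex on class I and class II promoters, was highest where the class I genes were low and read -2.95, -1.58, -1.65 and -3.11. IRF2 read -2.97, -4.60, -3.65 and -3.29. Chosen after their values were seen, NLRC5, the class I transactivator, read -3.30, -3.89, -3.91 and -2.79, and CIITA, the class II transactivator, was well above background on 2 arrays only and reached at most -4.86.

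Of the co-stimulatory genes 4 of 6 were tested. CD40, the receptor of the T cell ligand CD40L, read 2.08, 1.05, 1.28 and 1.96, and CD86 read -3.08, -3.49, -2.39 and -3.14. The cell line difference of CD86 was -0.52 with an SE of 0.51, the largest of the genes named from the lists (limma adjusted p = 1).

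**Figure D4:**
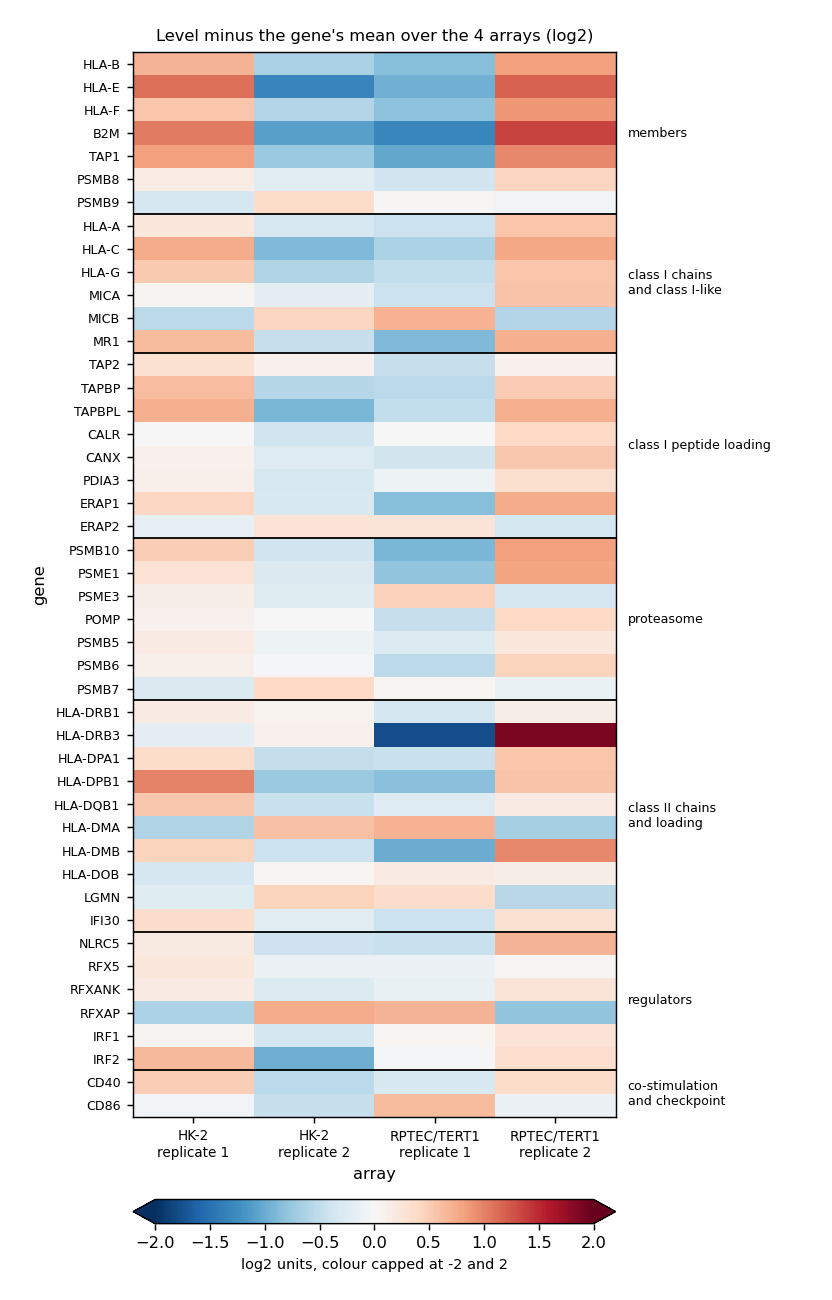
Level of 7 members and 39 pathway genes, all well above background on the 4 arrays, minus each gene's mean over the arrays (log2, red above and blue below the mean), with arrays in columns and lists set apart by lines. The outer columns resemble each other, as do the inner columns, in most rows of the class I lists, while MICB, HLA-DMA and RFXAP run the other way and HLA-DRB3 has its highest and its lowest value in the RPTEC/TERT1 columns.

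The median profile of the 7 members well above background on all arrays was 0.68, -0.64, -0.85 and 0.86 around the mean on H1, H2, R1 and R2. Among 13771 genes well above background on all arrays, IER3, an early response gene, had the least root mean square distance from it (0.018). It was followed by KLF13, a Krüppel-like transcription factor (0.024), FLVCR1, a transporter of the plasma membrane (0.025), MRPL53, a mitochondrial ribosomal protein (0.038), and the transcript ENST00000431378 (0.038). Of the members themselves HLA-B lay 0.023 and PSMB9 0.96 from it. With 4 arrays many genes have a profile of this kind.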

How the data were processed

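Gene expression was measured in HPTCs stimulated with IL-1β and Empa, on 2 arrays per cell line (HK-2 and RPTEC/TERT1), grouped and numbered as in the labels. The authors deposited linear spot intensities, read with Agilent Feature Extraction 9.5.3.1. Per the file headers the processed signal is background-subtracted and detrended but not scaled between arrays, and probe positions are those of GRCh37. A table of log2 values was deposited too, whose scaling and centring are not given in the sources used here (array medians 8.31, 7.04, 6.67 and 6.65 on HK-2 replicates 1 and 2 and RPTEC/TERT1 replicates 1 and 2). Their direction is that of the intensities (rank correlation of 0.999 on each array with the spot mean minus its local background), and they served as an alternative only. The labels name the RNeasy kit and the methods the innuPREP kit. The files hold no columns of other samples.

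Control spots and outlier spots were dropped. Signals were divided by the array's 75th percentile over 43118 non-control spots, set to a floor of 0.0242 of it (level -5.37), the least scaled signal that counts as well above background on the array where this is largest, and taken to log2. Spots were averaged per probe. A gene is the mean of those of its probes that passed background on at least 1 array. The 16468 genes that passed it on at least 2 arrays were compared between the labels with limma 3.58.1 (lmFit and eBayes, R 4.3.3) and Benjamini-Hochberg adjustment over all of them at 0.05. With 200 of these genes changed by 2 log2 units in simulated data of this comparison, the step recovered 200 and made 15 false calls. That was a check of the step and not of what these arrays could detect. On them the members had intervals of 2.62 to 6.70 log2 units in width, so a change of 2 log2 units could go uncalled. With 2 arrays a label, their number limits the precision.

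Arrays of the same replicate number deviated in opposite directions from the means of their labels (correlation across genes of -0.810), so the numbers were not taken to pair the arrays. Replicate number and scan date coincide, and each array had a slide of its own.

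The genes named are the 9 members, from each pathway list up to 3 genes with the widest range among those well above background on all 4 arrays, any gene called, and the 5 non-members nearest to the members' median profile. Members, lists and rules were chosen with earlier results of these data known. Promoter sequences and gene order are those of RefSeq (GRCh38.p14), probe sequences those of the scanner files; motifs were searched with Python 3. Some genes of the lists are counted but not reported here by name. No statement is made on the effect of IL-1β or Empa. Alternatives were normexp background correction, quantile or median scaling, the filter on dim genes, outlier spots, the choice of probe, the deposited log2 values, the replicate block and leaving out each array. Added after the data were seen were no scaling, normexp without spots of bright local background, and the crossed block.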

Additional observations from a re-analysis of the deposited data

Results flagged for a closer look

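The difference between the arrays labelled HK-2 and RPTEC/TERT1 had opposite signs within the replicate numbers in 6 members with over 1 log2 unit on each side. These differences are between single arrays, and the turn of the sign was not tested. HK-2 minus RPTEC/TERT1 was 2.35 within replicate 1 and -2.44 within replicate 2 for B2M. It was 2.07 and -2.51 for HLA-E, 1.85 and -1.70 for TAP1, 1.53 and -1.46 for HLA-B, and 1.37 and -1.45 for HLA-F. For CD74 it was -1.93 and 1.29, where HK-2 replicate 1 and RPTEC/TERT1 replicate 2 stood at the floor of the scale, and the first turned to 2.01 under normexp and to 1.13 with the deposited log2 values. Over all genes tested, 14.6% turned from above 1 to below -1 in this way and 12.8% from below -1 to above 1.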

How the results depend on the processing

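No gene, no member and no pathway gene was called with limma under any setting run, and the unadjusted p was under 0.05 in 23 of all genes (3 with the deposited log2 values, 240 without the filter on dim genes). With the replicate block this count was 5, and no call changed. The deviations of same-numbered arrays from the means of their labels were negatively correlated across genes (-0.810), the cause of which was not tested. With the crossed pairing as a block 0 genes were called, with 183 at an unadjusted p under 0.05. The scan date as a block is the replicate block. Since the mean differences of the members lay near 0, their sign was not stable. Under normexp HLA-B became -0.46, TAP1 -0.37, PSMB9 -0.22 and CD74 1.20. With the deposited log2 values these became -0.096, -0.046, -0.013 and 0.78. Under median scaling HLA-B became -0.012 and PSMB9 -0.014, and with the brightest probe, A_33_P3424800, HLA-B became -0.070. Without scaling HLA-E became 0.027, HLA-F 0.20, B2M 0.20 and PSMB8 0.19. Without bright spots normexp turned PSMB8 to 0.0044. Leaving out each array in turn, which leaves a label with 1 array assumed to vary like the other label, gave -0.80 to 0.87 for HLA-B, -1.43 to 1.00 for HLA-E, -0.88 to 0.80 for HLA-F, -1.37 to 1.28 for B2M, -0.92 to 1.07 for TAP1, -0.46 to 0.35 for PSMB8, -0.32 to 0.38 for PSMB9 and -1.29 to 0.64 for CD74, with 0 calls.

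The split of the arrays depended on the processing in part. The median absolute difference of the members within a label, 1.61, was 1.09 under normexp and 1.21 with the deposited values. These settings raise HK-2 replicate 1 as a whole, by a median of 0.99 and 0.73 over all genes against HK-2 replicate 2, beside 0.062 in the values reported. HK-2 replicate 1 has 7 spots of bright local background, over 5 times the array median, and the other arrays 0. Without these spots normexp gave a median of 0.30 and 5 members higher by over 1 within replicate 1, the 5 of the values reported, while with them it gave 3, HLA-E, B2M and CD74, so that 2 of the 5 remained. CD74, -1.93 within replicate 1 and 1.29 within replicate 2 as reported, was 2.01 and 0.39 under normexp, 1.13 and 0.43 with the deposited values and -0.46 and 0.40 under normexp without these spots. So 0 of 8 members were lower by over 1 within replicate 1 and 0 higher by over 1 within replicate 2 under these settings. A filter of all 4 arrays left CD74 out, which gave 0 too. Without scaling, 2 members were higher and 2 lower by over 1 within replicate 2, with a median shift of 0.71 over all genes. HK-2 replicate 1 and RPTEC/TERT1 replicate 2 were highest in 5 members then and in 6 otherwise. Signal near background limits CD74 and HLA-DRA, and the intervals of HLA-B, HLA-E, HLA-F, B2M and TAP1 reach at least 4.45-fold in each direction.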
